A study of Homo sapiens with 3 samples.

Results

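The zinc finger genes of chromosome 19 were taken as the protein-coding RefSeq genes of that chromosome (GRCh38.p14) whose symbol is ZNF followed by a number, with or without 1 letter after it. This gave 246 of the 1451 protein-coding genes of chromosome 19, and the other 1205 were the genes they were set against. The cells were ALL-SIL, a long-established line grown from a human T-cell leukaemia of the acute lymphoblastic type, which is known to carry rearranged TLX1 and a fusion of NUP214 with ABL1. Marks were mapped by chromatin immunoprecipitation and sequencing (ChIP-seq). There was 1 H3K4me3 library and 1 H3K4me1 library, and both were called against 1 input DNA library of the same line. With 1 library per mark there is no replicate error, and no difference between gene groups given here was tested. The 95% intervals are exact (Clopper-Pearson), cover counting error only, and treat neighbouring genes that can share a peak as independent.

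Most ZNF genes encode proteins with a run of C2H2 zinc fingers that read DNA, and many also carry a KRAB domain. The KRAB domain binds TRIM28, which brings the histone methyltransferase SETDB1 and heterochromatin proteins, and much of the family is known for silencing transposable elements. The genes arose largely by tandem duplication and lie in clusters, of which chromosome 19 holds the most. H3K4me3 marks active promoters, and H3K4me1 marks enhancers and the flanks of promoters.

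Markers of the T lineage carried H3K4me3 more often than protein-coding genes in general, though the marker lists were short. Of 14 T-lineage markers, 10 had H3K4me3 within 1 kb of a gene end (71.4%), against 49.4% of all protein-coding genes. It was there or inside the gene in 13 of the 14, against 53.4% of all, the exception being CD2. H3K4me3 was at an end of 0 of 4 myeloid and 0 of 3 erythroid markers. The H3K4me3 list held 11100 peaks, 879 of them on chromosome 19, and the H3K4me1 list 62087 peaks, 2280 of them there.

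The promoters of 5 ZNF genes show the sequences on which the marks lay, as the window from 250 bases before to 50 bases after the 5′-most start site that RefSeq lists. All are on chromosome 19 of GRCh38.p14 and are written 5′ to 3′ on the strand of the gene. In the first 4, capitals mark each CpG dinucleotide. ZNF823 had the highest H3K4me3 pileup at an end, and H3K4me3 covered all 300 bases of its window (chr19:11738897-11739196, minus strand, 17 CpG). ZNF580 had the longest H3K4me3 peak at an end, of which 96 bases lay in its window (chr19:55640752-55641051, plus strand, 35 CpG). H3K4me1 covered 133 bases of that window. ZNF536 had the longest gene span among those with neither mark at an end, and neither mark touched its window (chr19:30225342-30225641, plus strand, 21 CpG). ZNF93, chosen after its values were seen, had the lowest CpG count among ZNF windows that H3K4me3 covered in full (chr19:19900696-19900995, plus strand, 10 CpG).
ZNF823: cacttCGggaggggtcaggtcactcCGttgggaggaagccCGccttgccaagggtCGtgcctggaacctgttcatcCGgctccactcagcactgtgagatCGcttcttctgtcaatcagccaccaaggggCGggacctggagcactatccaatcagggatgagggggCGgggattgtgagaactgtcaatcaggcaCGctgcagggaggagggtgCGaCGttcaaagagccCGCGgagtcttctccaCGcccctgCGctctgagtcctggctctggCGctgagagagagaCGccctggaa
ZNF580: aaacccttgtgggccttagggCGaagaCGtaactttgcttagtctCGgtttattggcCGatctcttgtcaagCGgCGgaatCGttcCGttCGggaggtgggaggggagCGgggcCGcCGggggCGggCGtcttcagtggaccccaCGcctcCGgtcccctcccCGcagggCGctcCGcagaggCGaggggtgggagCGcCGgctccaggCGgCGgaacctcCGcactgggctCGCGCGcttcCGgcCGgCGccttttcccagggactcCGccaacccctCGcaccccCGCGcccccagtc
ZNF536: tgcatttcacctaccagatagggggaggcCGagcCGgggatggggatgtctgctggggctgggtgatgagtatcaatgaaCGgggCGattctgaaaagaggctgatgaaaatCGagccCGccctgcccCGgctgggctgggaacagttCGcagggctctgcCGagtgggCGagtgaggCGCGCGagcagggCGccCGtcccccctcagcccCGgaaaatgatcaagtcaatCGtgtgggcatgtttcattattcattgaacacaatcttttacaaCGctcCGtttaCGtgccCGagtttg
ZNF93: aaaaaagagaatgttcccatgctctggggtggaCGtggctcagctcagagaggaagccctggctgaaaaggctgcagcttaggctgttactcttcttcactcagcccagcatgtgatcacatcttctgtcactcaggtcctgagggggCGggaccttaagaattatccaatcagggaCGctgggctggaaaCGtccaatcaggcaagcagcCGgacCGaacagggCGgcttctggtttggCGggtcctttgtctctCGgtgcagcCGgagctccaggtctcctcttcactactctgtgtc
In the window of ZNF787 (chr19:56121246-56121545, minus strand), also chosen after its values were seen, capitals mark CCGGAAG and its reverse complement. CCGGAAG is a core of the binding motif of ETS factors, and the window held 3 matches, a pair of which overlap.
ZNF787: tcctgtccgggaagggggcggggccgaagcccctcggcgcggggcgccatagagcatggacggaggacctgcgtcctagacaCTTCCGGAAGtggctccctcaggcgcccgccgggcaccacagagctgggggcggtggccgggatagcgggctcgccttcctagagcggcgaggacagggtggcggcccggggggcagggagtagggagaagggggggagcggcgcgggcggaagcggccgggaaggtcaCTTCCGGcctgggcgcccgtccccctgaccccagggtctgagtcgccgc

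H3K4me3 lay at the ends of most ZNF genes. It was within 1 kb of an end of 184 of the 246 ZNF genes (74.8%, 95% interval 68.9 to 80.1), against 606 of the 1205 other genes of chromosome 19 (50.3%, 47.4 to 53.2) and 49.4% of all 20033 protein-coding genes. The 246 genes are included in that last figure. ZNF genes of other chromosomes had nearly the same share, 185 of 263 (70.3%, 64.4 to 75.8). The 16 genes of chromosome 19 with other zinc finger symbols (ZFP, ZSCAN, ZIM, ZIK, ZKSCAN and PEG3) had 6 (37.5%, 15.2 to 64.6). Among ZNF genes the share was lowest in the longest genes. It was 82.1% of 28 ZNF genes under 10 kb (63.1 to 93.9), 77.3% of 194 genes of 10 to 50 kb (70.8 to 83.0) and 45.8% of 24 genes of 50 kb or more (25.6 to 67.2). The last interval overlaps the first and not the second. Among the other genes the shares were 44.6%, 53.3% and 57.7%.

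H3K4me1 was at an end of a smaller share of ZNF genes than of other genes of chromosome 19, though at a share near that of all genes. More of the ZNF genes had H3K4me3 alone. The difference in H3K4me1 was larger at 3′ ends than at 5′ ends, as given below. It was at an end of 106 ZNF genes (43.1%, 36.8 to 49.5) and 648 of the other genes (53.8%, 50.9 to 56.6), against 42.6% of all protein-coding genes. The order of ZNF and other genes depended on weak peaks: it was 4.07% and 1.74% with peaks whose −log10 q reached 10, and 11.4% and 10.0% with equal numbers of peaks of each mark. Both marks were at 100 ZNF genes (40.7%) and 522 other genes (43.3%), against 34.1% of all. Each mark was counted at either end, so the pair could lie at opposite ends of a gene. H3K4me3 alone was at 84 ZNF genes (34.1%, 28.2 to 40.4) and 84 other genes (6.97%, 5.60 to 8.56), against 15.4% of all, and ZNF genes of other chromosomes resembled those of chromosome 19, with 78 of 263 (29.7%, 24.2 to 35.6). Neither mark was at an end of 56 ZNF genes (22.8%) and 473 other genes (39.3%), against 42.1% of all. H3K4me1 without H3K4me3 was at 6 ZNF genes (2.44%) and 126 other genes (10.5%), against 8.51% of all. Among genes with H3K4me3 at an end, 54.3% of the ZNF genes (46.9 to 61.7) and 86.1% of the others (83.1 to 88.8) also had H3K4me1 at the same end or the other one, against 68.9% of all. H3K4me1 at 3′ ends, more frequent in the others as given below, was thus counted too. At ZNF genes of other chromosomes the share with H3K4me1 among genes with H3K4me3 was 57.8% (50.4 to 65.0). These shares, and those of H3K4me3 alone, also depended on weak H3K4me1 peaks. With equal numbers of peaks, H3K4me3 stayed at 74.8% of ZNF genes of chromosome 19 and 50.3% of the others. Both marks were then at 11.0% and 8.05%, so that H3K4me3 alone rose in both groups.

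**Figure D1:**
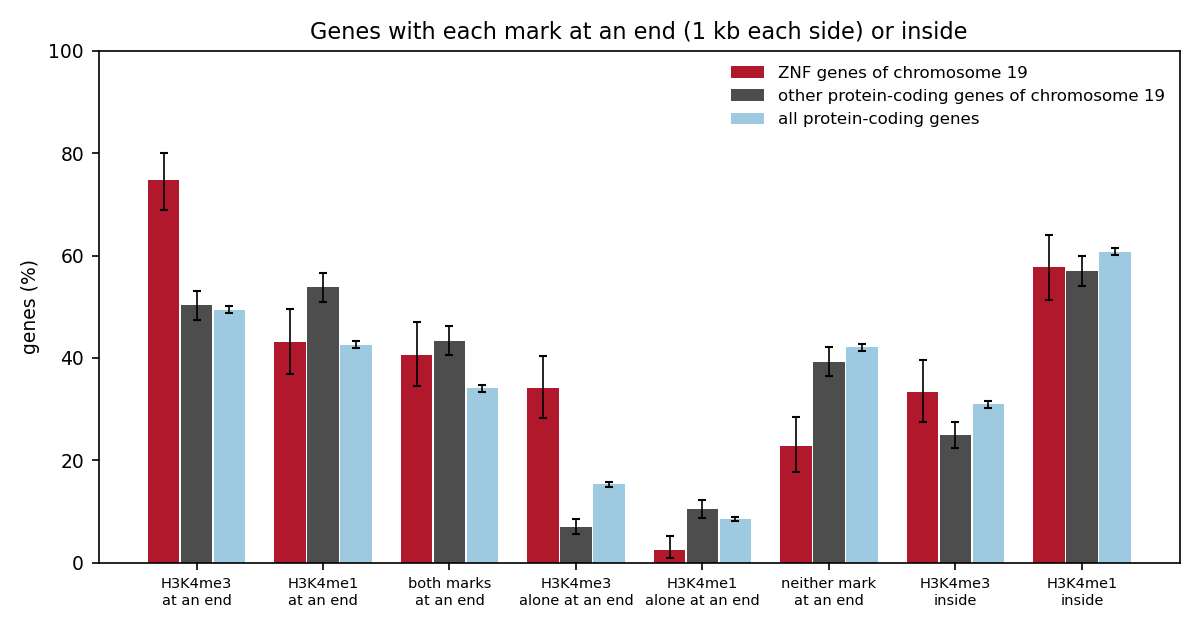
Percent of genes with each mark within 1 kb of an end or inside the gene, for 246 ZNF genes of chromosome 19, 1205 other protein-coding genes of chromosome 19 and all 20033 protein-coding genes, the inside shares being over genes with an interior beyond the end windows; bars are shares and whiskers exact 95% intervals for counting error. H3K4me3 alone stands at 34.1% of ZNF genes and 6.97% of the other genes of the chromosome, with each mark taken at either end and weak H3K4me1 peaks counted. A peak at an end that reaches past the end window also counts as inside.

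The marked end was the 5′ end. RefSeq promoters gave the strand and at least 1 start site for 216 of the 246 ZNF genes. H3K4me3 was at the 5′ end only of 159 of these, at both ends of 6 and at the 3′ end only of 1. The 3′ end was thus marked in 7 ZNF genes (3.24%) and in 96 of 969 other genes (9.91%), against 4.85% of all genes with a listed start, a share inside the ZNF interval of 1.31 to 6.56. The 7 were ZNF766, ZNF880, ZNF701, ZNF628, ZNF580, ZNF544 and ZNF324. For H3K4me1 the 3′ end was marked in 12 ZNF genes (5.56%, 2.90 to 9.50) and 234 other genes (24.1%, 21.5 to 27.0), against 16.1% of all. Its 5′ shares were closer, with overlapping intervals: 92 ZNF genes (42.6%, 35.9 to 49.5) and 463 other genes (47.8%, 44.6 to 51.0), against 37.4% of all.

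Within 1 kb of any listed start, H3K4me3 was found at 186 of 216 ZNF genes (86.1%, 80.8 to 90.4) and 506 of 969 other genes (52.2%), against 53.5% of all genes with a listed start. H3K4me1 was near a start of 108 of the 216 ZNF genes and 490 of the 969 other genes (50.6%), against 40.9% of all. The 30 ZNF genes with no listed start had H3K4me3 at an end less often, 18 of 30, than the 216 with one, 166 of 216, so the start-site share covers a more marked subset.

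Around the start, H3K4me3 reached further into the ZNF gene than upstream of it. The 5′-most start lay inside an H3K4me3 peak in 173 ZNF genes (80.1%) and 434 other genes (44.8%). In those 173 the peak extended a median of 816 bp downstream (quartiles 680 and 995) and 378 bp upstream (97 and 588). The downstream part was the longer one in 83.2% of the ZNF genes. In the other genes the medians were 871.5 bp downstream and 563 bp upstream, and the downstream part was longer in 68.9%.

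H3K4me1 was rare over ZNF start sites and peaked on each side of them. It covered the start of 3.24% of ZNF genes and 11.9% of other genes. Downstream it was highest 1.3 kb into the ZNF genes, where it covered 35.6%, and 1.4 kb into the other genes, where it covered 28.2%. Upstream it was highest 0.5 kb before ZNF starts (24.5%) and 0.6 kb before the others (24.05%). At 4 kb into the gene it covered 2.31% of ZNF genes and 13.3% of the others.

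**Figure D2:**
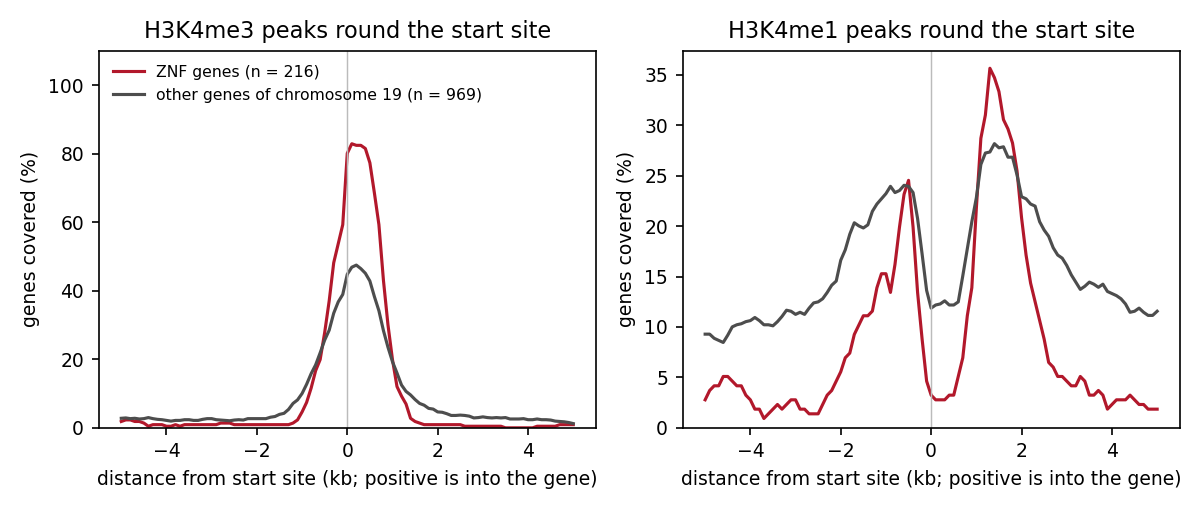
Percent of genes whose position is covered by an H3K4me3 peak (left) or an H3K4me1 peak (right), against the distance in kb from the 5′-most listed start, with positive values into the gene, for 216 ZNF genes and 969 other genes of chromosome 19. ZNF genes reach 82.9% for H3K4me3 at 0.1 kb and 35.6% for H3K4me1 at 1.3 kb, and H3K4me1 falls to 3.24% over their start.

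The H3K4me3 peaks at ZNF ends were short. The 184 genes had 180 distinct peaks at their ends, 179 genes with 1 peak and 5 with 2. Their median length was 1202 bp (quartiles 930 and 1454, interval of the median 1110 to 1273), against 1350 bp (941 and 1871, interval 1285 to 1411) for the 517 peaks at ends of other genes. Peaks of 2 kb or more made up 3.89% of the ZNF peaks (7) and 21.1% of the others (109), and 0 ZNF peaks and 9 others reached 4 kb. Peaks at ends of all protein-coding genes had a median of 1496.5 bp, with 26.8% of 2 kb or more. Those of ZNF genes of other chromosomes had 1413 bp (interval 1256 to 1523) and 19.1%. Pileup, the coverage by extended fragments averaged over the peak in the authors' list, had a median of 14.7 (11.4 and 20.4) at ZNF ends and 16.02 (11.6 and 21.1) at the others. Their intervals, 13.7 to 16.4 and 15.1 to 16.6, overlapped. The authors' fold over the local background had medians of 4.27 and 4.43. The intervals of the median length did not overlap and those of pileup did.

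**Figure D3:**
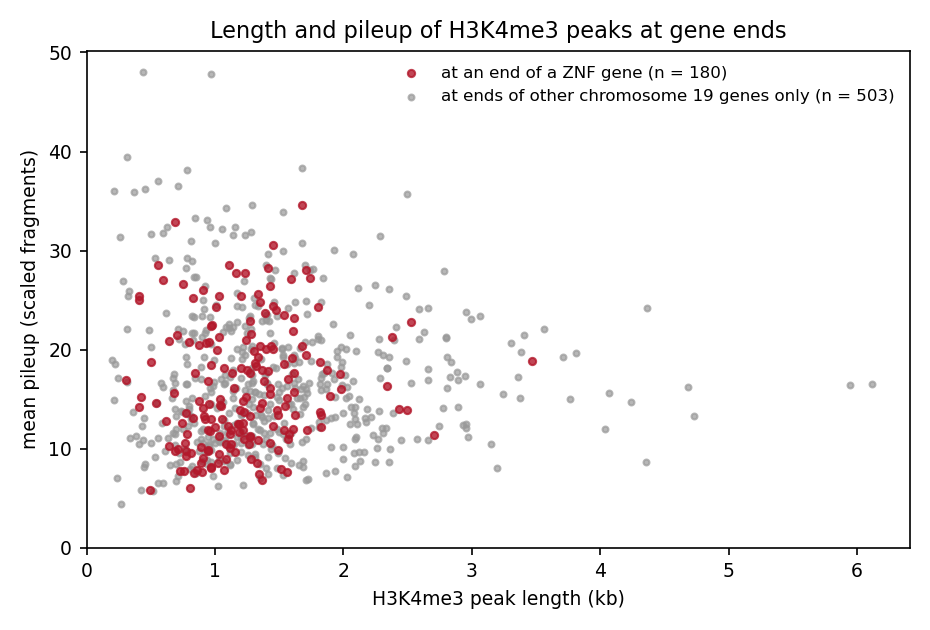
Length in kb and mean pileup of each H3K4me3 peak at a gene end on chromosome 19: 180 peaks at an end of a ZNF gene and 503 at ends of other genes only. The longest ZNF peak has 3469 bp and the longest other peak 6116 bp, and the highest pileup at a ZNF end is 34.6, below that of several other peaks.

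The longest peak, 3469 bp with a pileup of 18.8, was within 1 kb of both ends of ZNF580. It also lay inside ZNF581, whose span holds ZNF580. ZNF253 followed with 2705 bp (pileup 11.4), ZNF576 with 2527 bp (22.8), shared with IRGQ, ZNF850 with 2497 bp (13.9) and ZNF254 with 2437 bp (14.03). Long peaks were not the highest ones. The highest pileup was at ZNF823 (34.6, length 1678 bp), then at ZNF20 (32.9, 691 bp), ZNF573 (30.6, 1455 bp), ZNF554 (28.5, 554 bp) and ZNF493 (28.5, 1110 bp).

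H3K4me1 peaks at ZNF ends were shorter still, with a median of 597 bp (quartiles 383 and 1190) over 122 peaks, against 1082 bp (558 and 2062) over 723 peaks of other genes. Median pileup was 6.74 and 7.87. The longest were at ZNF414 (4827 bp), ZNF784 (4690 bp) and ZNF577 (4285 bp).

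H3K4me1 flanked fewer of the ZNF promoters. It lay within 2 kb on both sides of 63 of the 180 H3K4me3 peaks at ZNF ends (35.0%, 28.1 to 42.4) and of 361 of 517 at other ends (69.8%, 65.7 to 73.8). On neither side it lay at 43 ZNF peaks (23.9%, 17.9 to 30.8) and 22 others (4.26%), against 10.6% of all peaks at ends of protein-coding genes. ZNF genes of other chromosomes were close, with 36 of 183 peaks (19.7%, 14.2 to 26.2). Unflanked ZNF peaks of chromosome 19 had a median length of 1039 bp and a pileup of 18.0, and those flanked on both sides 1246 bp and 14.7. The 32 peaks at non-ZNF genes within the ZNF clusters were flanked on both sides in 71.9% (53.3 to 86.3), an interval that does not overlap that of the ZNF peaks. At ZNF genes of other chromosomes it was 95 of 183 (51.9%, 44.4 to 59.3), and among all peaks at gene ends 58.0%. Where the start lay inside H3K4me3, the downstream side carried H3K4me1 in 68.2% of ZNF genes and 90.3% of others, and the upstream side in 51.4% and 75.6%.

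Inside the genes, beyond the end windows, H3K4me1 was in about as many ZNF genes as others of the chromosome but covered fewer bases. H3K4me3 was in a larger share of ZNF genes than of those others, though near the share of all genes. It covered about the same share of bases as in those others. ZNF genes were also longer, with a median span of 23151.5 bp against 12763 bp. An end peak that reached past the end window also counted as inside, so these shares include promoter peaks and their flanks. Only 36 H3K4me3 peaks lay inside ZNF genes without also being counted at a gene end. ZNF genes with any H3K4me3 inside held a median of 632 bp of it (lower quartile 165). H3K4me1 was highest 1.3 kb past ZNF starts, just beyond the end window. Shares without such end peaks were not computed. H3K4me1 was inside 142 of 246 ZNF genes (57.7%, 51.3 to 64.0) and 648 of 1137 other genes with an interior (57.0%), against 60.7% of all. It covered 2.25% of interior bases in ZNF genes and 9.02% in the others, against 5.50% in all genes. H3K4me3 was inside 82 ZNF genes (33.3%, 27.5 to 39.6) and 283 others (24.9%), against 30.9% of all, a share inside the ZNF interval. It was inside 40.5% of ZNF genes of other chromosomes (34.5 to 46.7). H3K4me3 covered 1.02% of interior bases in ZNF genes of chromosome 19 and 1.09% in the others, against 0.459% in all genes. The most H3K4me1 was inside ZNF254 (4680 bp), ZNF69 (3598 bp), ZNF577 (3550 bp), ZNF444 (3517 bp) and ZNF581 (3397 bp). The most H3K4me3 was inside ZNF581 (3469 bp, the ZNF580 peak), ZNF69 (3411 bp), ZNF254 (2387 bp), ZNF331 (2361 bp) and ZNF790 (1915 bp). The H3K4me3 inside ZNF69 came from 3 peaks over a span of 92441 bp, and that inside ZNF254 from 2 peaks over 96520 bp.

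ZNF genes without H3K4me3 at an end often had it inside. This held for 24 of the 62 (38.7%, 26.6 to 51.9) and for 43 of 599 other unmarked genes (7.18%), against 7.87% of all, and for 13 of 78 ZNF genes of other chromosomes (16.7%, 9.18 to 26.8). Of the 50 unmarked ZNF genes with a listed start, 21 had H3K4me3 at one. Counting the end or the inside, 208 ZNF genes (84.6%, 79.4 to 88.8) and 649 others (53.9%, 51.0 to 56.7) carried H3K4me3, against 53.4% of all. That left 38 ZNF genes with none, 6 of which had H3K4me1 at an end or inside, and 32 with neither mark anywhere. Of the 6 genes with H3K4me1 and no H3K4me3 at an end, ZNF577 had an H3K4me1 peak of 4285 bp, ZNF444 of 3292 bp, ZNF358 of 1793 bp, ZNF574 of 1146 bp, ZNF225 of 438 bp and ZNF875 of 206 bp. All but ZNF577 had H3K4me3 at a listed start inside the gene. The longest genes with neither mark at an end were ZNF536 (488 kb), ZNF420 (122 kb), ZNF676 (81.2 kb), ZNF331 (77.0 kb), ZNF208 (71.1 kb) and ZNF600 (69.5 kb). ZNF331, ZNF420 and ZNF600 held 2361, 1643 and 1888 bp of H3K4me3 inside, while ZNF536, ZNF676 and ZNF208 held 0 bp.

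Along the chromosome, 232 of the ZNF genes lay in 10 clusters, formed by joining ZNF genes across gaps of up to 500 kb and keeping groups of at least 4. H3K4me3 marked most genes of each cluster, and all the intervals overlapped. From the short-arm end, the cluster from ZNF554 to ZNF77 (2.8 to 2.9 Mb) had it at an end of 3 of 5 genes. The cluster from ZNF414 to ZNF846 (8.5 to 9.8 Mb) had 9 of 13 (69.2%), and that from ZNF653 to ZNF791 (11.5 to 12.6 Mb) 20 of 25 (80.0%). The cluster from ZNF101 to ZNF254 (19.7 to 24.1 Mb), next to the centromere and known for its expansion in primates, had 27 of 37 (73.0%, 55.9 to 86.2).

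On the long arm, the cluster from ZNF302 to ZNF792 (34.7 to 35.0 Mb) had H3K4me3 at 3 of 5 genes, and all 5 had it at an end or inside. The cluster from ZNF565 to ZNF573 (36.2 to 37.8 Mb) had 21 of 26 (80.8%) at an end and 25 of 26 at an end or inside. The cluster from ZNF575 to ZNF180 (43.5 to 44.5 Mb) had 15 of 23 (65.2%, 42.7 to 83.6). The cluster from ZNF175 to ZNF331 (51.6 to 53.6 Mb) had 29 of 39 (74.4%), and that from ZNF628 to ZNF835 (55.5 to 56.7 Mb) 12 of 16. The last cluster, from ZNF264 to ZNF446 (57.2 to 58.5 Mb), had the highest share, 37 of 43 (86.0%, 72.1 to 94.7). The 14 ZNF genes outside clusters had 8 (57.1%).

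Taken over all clusters, the other genes within the cluster spans were marked less often than the ZNF genes beside them. H3K4me3 was at an end of 32 of these 91 genes (35.2%, 25.4 to 45.9), and H3K4me1 at 35 (38.5%). Between ZNF628 and ZNF835 the counts were 12 of 16 ZNF genes and 6 of 26 others, and between ZNF414 and ZNF846 they were 9 of 13 and 3 of 15. Between ZNF575 and ZNF180 the counts were 15 of 23 and 6 of 10, and between ZNF565 and ZNF573 they were 21 of 26 and 3 of 4. The intervals of ZNF and other genes overlapped in each cluster that held other genes but those from ZNF628 to ZNF835 and from ZNF264 to ZNF446, and, with 57.9 to 87.0 against 11.0 to 58.7, overlapped narrowly from ZNF175 to ZNF331.

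H3K4me1 was at an end of fewer ZNF genes on the short arm than on the long arm. It was at 24 of 80 ZNF genes in the short-arm clusters (20.3 to 41.3%) and 74 of 152 in the long-arm clusters (48.7%, 40.5 to 56.9). The 2 intervals overlap slightly. Among the other genes the share was 58.9% up to the end of the centromeric cluster and 49.2% beyond it. The highest shares were 10 of 16 between ZNF628 and ZNF835 (62.5%) and 25 of 43 between ZNF264 and ZNF446 (58.1%, 42.1 to 73.0), and the lowest of the larger clusters was 10 of 37 between ZNF101 and ZNF254 (27.0%, 13.8 to 44.1). Median H3K4me3 pileup was 17.6 in the short-arm clusters (58 peaks) and 14.2 in the long-arm ones (114 peaks), with folds of 4.35 and 4.29. Among the other genes pileup went the same way, 16.5 up to the end of the centromeric cluster and 15.3 beyond it. Of the ZNF clusters, pileup was lowest between ZNF575 and ZNF180 (11.9) and between ZNF175 and ZNF331 (11.98).

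**Figure D4:**
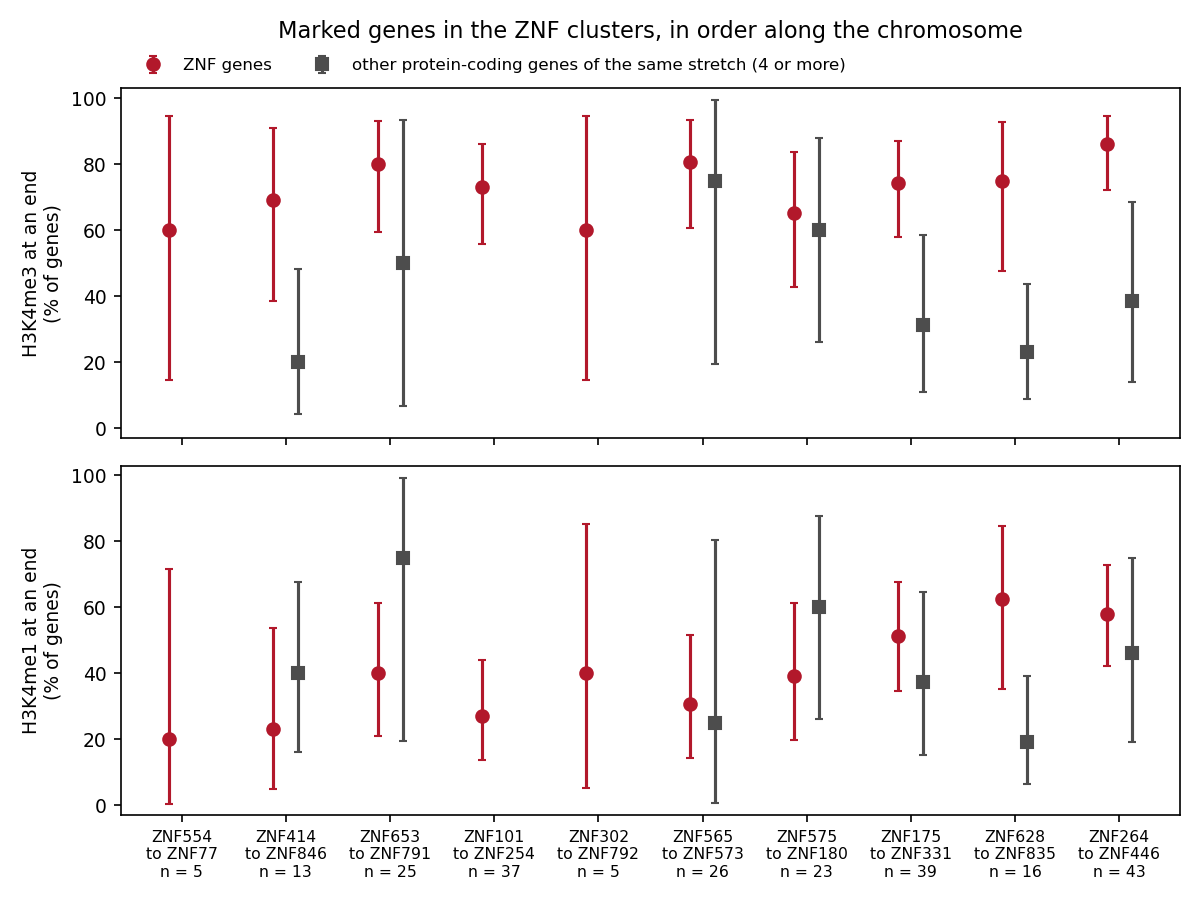
Percent of genes with H3K4me3 (top) and H3K4me1 (bottom) within 1 kb of an end in the 10 ZNF clusters, in order along the chromosome, for ZNF genes and, where a cluster span held at least 4, the other protein-coding genes in it; whiskers are exact 95% intervals. H3K4me3 marks 60.0% to 86.0% of the ZNF genes in each cluster.

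In each cluster the longest H3K4me3 peak at an end was moderate in length. From the short-arm end these were at ZNF57 (1301 bp), ZNF266 (1826 bp), ZNF700 (2376 bp), ZNF253 (2705 bp), ZNF792 (1821 bp), ZNF850 (2497 bp), ZNF576 (2527 bp), ZNF836 (1623 bp), ZNF580 (3469 bp) and ZNF460 (1984 bp). Outside clusters the longest was at ZNF473 (1563 bp), shared with VRK3.

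Unmarked ZNF genes stood side by side in the centromeric cluster, a pattern picked out after the values were seen. The neighbours ZNF676, ZNF729, ZNF98, ZNF492, ZNF99, ZNF723 and ZNF728 held no H3K4me3 at an end or inside. Their stretch of 824088 bp (chr19:22179089-23003176) contained 0 H3K4me3 peaks and 1 H3K4me1 peak, of 1932 bp. At ZNF492 the nearest H3K4me3 peak to an end was 407471 bp away. ZNF90, ZNF626 and ZNF208 were the other genes of this cluster with no H3K4me3, while ZNF66 (1128 bp, pileup 10.5) and ZNF85 (945 bp, 16.8) were marked. A shorter run of ZNF112, ZNF285 and ZNF229, in the long-arm cluster from ZNF575 to ZNF180, covered 122026 bp with 0 peaks of either mark. Genes of the centromeric cluster are close paralogues, and how reads that align to several copies were treated is not given in the sources used here. Its part in the absence of peaks was not tested.

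Most H3K4me3 peaks at ZNF ends belonged to 1 gene. Of the 180 peaks, 127 (70.6%) touched the end of a single ZNF gene and of no other protein-coding or lncRNA gene, and 53 (29.4%) were shared, against 207 of 517 (40.0%) at other genes of the chromosome. ZNF genes shared 14 peaks with another protein-coding gene, read-through genes included, and 32 with a lncRNA gene. In 9 cases 1 peak lay at ends of a pair of ZNF genes. These were ZNF490 and ZNF791, ZNF529 and ZNF382, ZNF461 and ZNF567, ZNF790 and ZNF345, ZNF829 and ZNF568, ZNF766 and ZNF480, ZNF880 and ZNF528, ZNF544 and ZNF8, and ZNF324 and ZNF446. ZNF766, ZNF880, ZNF544 and ZNF324, named above for a marked 3′ end, are in these pairs, so a pair peak need not lie on a shared promoter. The pair peaks had a median of 1513 bp and peaks of 1 gene alone 1148 bp. Among genes with no other gene end within 2 kb of theirs, a comparison added after seeing the data, 74.1% of 139 ZNF genes (66.0 to 81.2) and 35.8% of 444 others (31.3 to 40.5) had H3K4me3.

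ZNF promoters carried H3K4me3 also where they were poor in CpG. The printed ZNF93 window, with 10 CpG, is an example picked for having both. The 216 windows held a median of 20 CpG (quartiles 14 and 25.2), and those of the 969 other genes 21 (9 and 31). With 10 to 19 CpG, the 5′-most start was marked in 74 of 86 ZNF genes (86.0%, 76.9 to 92.6) and 84 of 195 others (43.1%, 36.02 to 50.3). With 0 to 9 CpG it was marked in 9 of 15 ZNF genes (60.0%, 32.3 to 83.7) and 24 of 258 others (9.30%, 6.05 to 13.5). The 9 were ZNF491, ZNF69, ZNF682, ZNF737, ZNF66, ZNF85, ZNF708, ZNF429 and ZNF681, and all but ZNF491 and ZNF69 lay in the centromeric cluster. From 20 to 29 CpG the shares were 87.4% and 75.5%, and with 30 or more 82.1% and 73.8%. ZNF541 and ZNF667, with 49 and 42 CpG the richest ZNF windows, had no H3K4me3 at the 5′-most start. Marked and unmarked ZNF windows differed little in CpG, with medians of 20 and 17.5, while marked and unmarked windows of the other genes had 27 and 10.

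**Figure D5:**
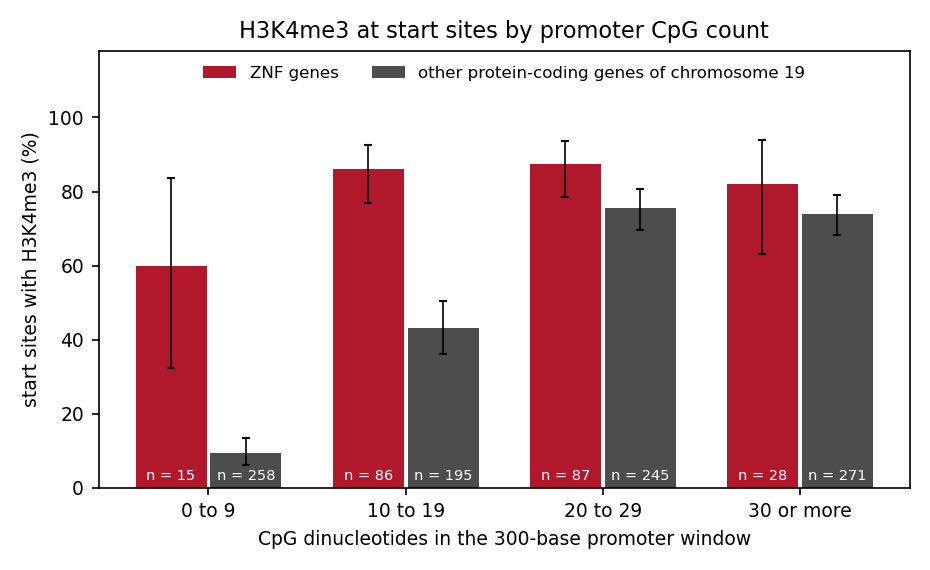
Percent of 5′-most start sites with H3K4me3 within 1 kb, by the number of CpG dinucleotides in the 300-base promoter window, for ZNF genes and other protein-coding genes of chromosome 19; whiskers are exact 95% intervals and n is the number of genes. ZNF genes stand at 60.0% with 0 to 9 CpG, against 9.30% of the other genes.

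Motifs were searched as exact letters on both strands, and each holds a CG, so that matches also count as CpG. CCGGAAG, the ETS core shown in the ZNF787 window, was in 97 of 216 ZNF windows (44.9%), in 13.0% of the windows of other chromosome 19 genes and in 14.1% of all 15841 windows. It was in 86 of 182 marked ZNF windows (47.3%) and 11 of 34 unmarked ones (32.4%). Among the other genes of the chromosome it was in 22.1% of 493 marked and 3.57% of 476 unmarked windows. By cluster it was in 21 of 29 windows between ZNF101 and ZNF254 (72.4%), 27 of 40 between ZNF264 and ZNF446 (67.5%) and 20 of 32 between ZNF175 and ZNF331 (62.5%), but in 2 of 24 between ZNF653 and ZNF791 (8.33%). H3K4me3 was at the start of 22 of those 24 and of 24 of the 29 between ZNF101 and ZNF254. GGGCGG, the GC box, was in 67.1% of ZNF windows, 65.7% of others and 58.3% of all. The NRF1 motif was in 2.78%, 2.48% and 1.77%. A YY1 motif was in 1.85%, 3.10% and 1.88%. The palindromic ZBTB33 motif was in 0.926%, 0.206% and 0.669%. A match describes the letters and not binding.

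Among 21 ZNF genes listed for a described role, 15 had H3K4me3 at an end (71.4%) and 8 had H3K4me1 (38.1%), near the shares of 74.8% and 43.1% over all ZNF genes of the chromosome. ZNF91, which silences SVA elements, had a peak of 1438 bp with a pileup of 20.4, and ZNF93, which silences LINE-1, one of 1977 bp with 17.5. ZNF417 and ZNF587, which act on HERV-K, had 830 bp (13.2) and 1116 bp (11.5), and ZNF611 had 771 bp (9.24). ZNF274, which brings SETDB1 to the 3′ ends of zinc finger genes, had 1601 bp (19.1). ZNF224, a repressor that binds WT1, had 1561 bp (15.1). ZNF146 had 1870 bp (18.0), ZNF649 1039 bp (14.4) and ZNF382 1351 bp (20.4), in the peak it shares with ZNF529. ZNF568, whose mouse counterpart represses a placental form of Igf2, had 1449 bp (20.0). ZNF808, needed for pancreas development, had 1267 bp (10.5), ZNF175 1226 bp (13.7) and ZNF419 505 bp (18.8). ZNF154, whose promoter is often methylated in tumours, had the lowest fold of these, 1.78, over 711 bp.

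The other 6 of that list had no H3K4me3 at an end. ZNF331, ZNF420, a negative regulator of p53, and ZNF558 held 2361, 1643 and 1170 bp inside, each at a listed start. ZNF471, ZNF208 and ZNF534, which has been described as acting on HERV-H, had none at an end or inside. At ZNF534 the nearest H3K4me3 peak to an end was 30546 bp away.

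The partners of KRAB zinc finger proteins were nearly all marked, with H3K4me3 at an end of 21 of 22 listed genes (95.5%) and H3K4me1 at 14, against 49.4% and 42.6% of all protein-coding genes. TRIM28, the corepressor, which also lies on chromosome 19, had a peak of 2051 bp with a pileup of 21.5. SETDB1 had 865 bp (12.1). The heterochromatin proteins CBX5, CBX3 and CBX1 had 6341, 8460 and 1152 bp, and the DNA methyltransferase DNMT1 had 1712 bp. The exception was UHRF1, which held 2834 bp inside the gene. The median of the longest end peak over these genes was 1788 bp.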

How the data were processed

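H3K4me1 and H3K4me3 were each measured in 1 ChIP-seq library of ALL-SIL cells, with 1 input library, grouped by the sample titles. Peaks were called by the authors with MACS2 2.1.0.20150731 in broad mode against the input, at a q of 0.1 for broad and 0.05 for strong regions, keeping 1 tag per position, all per the file headers, which also say that the larger library was scaled down. The paths of the aligned reads in those headers carry the name STAR; neither its version nor how it treated reads with several matches is stated there or in the labels. Coordinates are GRCh38, per the submitters' processing notes. The deposited lists gave a pileup (a coverage signal), a fold over background (a ratio) and −log10 p and q for each peak, all means over the region, and these are the authors' own scores, used within 1 list. The tags left after filtering were 34813455 for H3K4me1, 30823016 for H3K4me3 and 18859011 for the input, per the file headers. Tags were 74 and 75 bp long.

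Gene spans were those of 20033 protein-coding genes on the main chromosomes in RefSeq GRCh38.p14, and starts and strands came from the RefSeq promoter table, which matched 216 ZNF genes. Symbols with a hyphen (4 read-through or divergent transcripts) were not counted as ZNF genes. Overlaps counted from 1 bp, in Python 3.11.15 with pandas 2.3.3 and scipy 1.17.1, with code tested on simulated peaks. The design foresaw a count of zinc fingers in the proteins, which is not analysed here. Genes named were the longest, highest and unmarked ones by a written rule, with a list of described roles. One further marker list is not reported here. Members and lists were chosen with earlier results of these data known. The alternatives were stricter peak sets, other windows, overlaps, cluster gaps and symbol rules.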

Additional observations from a re-analysis of the deposited data

How the results depend on the processing

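The share of ZNF genes with H3K4me3 at an end stayed above that of the other genes of chromosome 19 in each alternative run. It was 37.8% of ZNF genes and 26.4% of the others when only peaks whose −log10 q reached 10 were used, and 40.2% and 28.6% above each list's median −log10 q. Windows of 500 bp or 2 kb, an overlap of 100 bp, genes of at least 10 kb and other symbol rules kept it within its interval. The H3K4me1 share depended on weak peaks and on the window. It was 4.07% of ZNF genes and 1.74% of others at the strict q, 19.9% and 30.9% above the median, 11.4% and 10.0% with equal numbers of peaks, 26.02% and 39.8% with windows of 500 bp, 61.8% and 62.1% with windows of 2 kb, and 35.97% and 40.3% for genes with no other gene end within 2 kb, a setting chosen after seeing the data. ZNF genes thus stood above the others at the strict q and with equal numbers of peaks, the other way from the values reported. For both marks the ZNF values were 0.407%, 8.54%, 11.0%, 24.8% and 58.5% in the first 5 of these settings, against 0.498%, 13.8%, 8.05%, 29.9% and 50.4% of the others. With equal numbers of peaks the H3K4me3 shares stayed at 74.8% and 50.3%, so H3K4me3 alone rose in both groups. With the strict q and above the median, H3K4me3 peaks at ZNF ends had a median length of 1313 bp in both cases, against 1399 and 1406 bp at other ends, the first of which lies inside the ZNF interval of 1200 to 1414, so that the difference in length no longer stood clear. Their pileups were 20.5 and 20.4, against 21.1 and 20.495. H3K4me1 on both sides was at 1.15% of ZNF peaks and 0.769% of others at the strict q, and at 19.4% and 28.4% above the median. H3K4me3 inside was 19.1% and 20.7% of ZNF genes in these settings, against 13.3% and 14.5% of others. H3K4me1 inside was 2.85% and 26.4%, against 2.02% and 33.8%. Above the median it was thus in a smaller share of ZNF genes, where the reported shares were about equal. With a cluster gap of 250 kb the highest cluster share was 100%, in a group of 4 genes. Of 49 alternative values, 25 lay within the interval of the reported one. The causes were not tested. No paired analysis was possible because each mark has 1 library.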
